A study of Mus musculus with 6 samples.

Results

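Germline genes are genes used in sperm, egg or early germ cells and kept off in other tissues, and 34 of them were followed here through their CpG methylation in blood stem and progenitor cells. The 34 genes were chosen by name, as a group called germline genes silenced by methylation. They were taken out of 34614 protein-coding and lncRNA genes in the mouse RefSeq table. The rule uses no value measured here, but the name of the group already states methylation. A high level at the members may therefore be built into the choice. Earlier results of these data were known when the list was chosen. All 34 were found in that table. For each gene, CpG positions with reads in all 6 libraries, called shared positions, were averaged within 1000 bases of either gene end (the ends) and over the rest of the gene (the body). Shared positions numbered 468 and lay in 27 of the 34 genes, with 264 at the ends of 23 genes and 204 in the bodies of 13. The ends of 12 genes and the bodies of 8 held at least 5 shared positions, which was the minimum for a test. Sycp2, Syce1, Piwil1, Nanos2, Nanos3, Dppa3 and Smc1b held no shared position, although 6 of these 7 were read in at least 1 library.

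The cells were long-term haematopoietic stem cells (LT-HSC, sorted as Lin- Sca+ Kit+ CD150+ CD48-), short-term stem cells (ST-HSC, CD150+ CD48+ within the same Lin- Sca+ Kit+ gate) and multipotent progenitors (MPP, CD150- within it). They came from the marrow of male C57BL/6 mice aged 7 to 10 months, pooled from 6 mice per group. Control mice were IDH1+/+ VavCre+ littermates, and KI mice were IDH1+/lsl VavCre+. Both genotypes carried Cre under the Vav promoter, which is active throughout blood cells, so the knock-in allele was not limited to 1 of the 3 cell types. Every pairing of a genotype with a cell type gave 1 library, 6 in all, of enhanced reduced representation bisulfite sequencing, a method that reads CpG-rich restriction fragments after conversion of unmethylated cytosine. With 1 library a group, a test between 2 libraries covers counting error only. The lane numbers in the deposited names never put libraries of both genotypes on 1 lane, and genotype and lane cannot be told apart here.

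In the embryo, promoters of many germline genes gain DNA methylation around implantation, and this methylation is retained in somatic tissues and removed in primordial germ cells. The de novo methyltransferase DNMT3B sets much of it, and a variant Polycomb complex with E2F6, MGA, MAX and PCGF6 is guided to many of the same promoters, where E2F6 reads GCGGGAA and MGA with MAX reads the E-box CACGTG. IDH1 makes the cofactor of the TET enzymes, which oxidise methylated cytosine. The comparison of KI with Control asks whether methylation differed in cells with the knock-in allele.

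The promoter sequences of 5 members are shown because their measured CpGs carry the results on germ cell, synapsis and sperm genes described below. Each runs 5′ to 3′ on the strand of the gene, from 250 bases before to 50 bases after the RefSeq start, and is credited to RefSeq on GRCm38.p6, the same build as mm10. Capitals mark CpGs with a shared position on at least 1 strand. Ddx4 lies at chr13:112652261-112652560 on the minus strand, Sycp1 at chr3:102936051-102936350 on the minus strand, and Hormad1 at chr3:95559427-95559726 on the plus strand. Hormad2 lies at chr11:4441033-4441332 on the minus strand and Slc25a31 at chr3:40708621-40708920 on the plus strand.
Ddx4: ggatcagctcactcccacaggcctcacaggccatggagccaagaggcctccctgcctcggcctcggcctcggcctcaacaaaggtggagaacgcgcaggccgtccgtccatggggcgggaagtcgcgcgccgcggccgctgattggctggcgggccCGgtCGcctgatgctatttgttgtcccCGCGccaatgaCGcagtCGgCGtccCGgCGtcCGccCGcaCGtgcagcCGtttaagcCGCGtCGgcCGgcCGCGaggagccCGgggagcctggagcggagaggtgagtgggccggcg
Sycp1: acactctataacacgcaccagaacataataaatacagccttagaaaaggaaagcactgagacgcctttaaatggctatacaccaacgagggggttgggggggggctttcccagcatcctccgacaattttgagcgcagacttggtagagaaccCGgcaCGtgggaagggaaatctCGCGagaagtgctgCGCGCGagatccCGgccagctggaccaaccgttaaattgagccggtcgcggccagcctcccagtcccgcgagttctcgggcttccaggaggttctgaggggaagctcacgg
Hormad1: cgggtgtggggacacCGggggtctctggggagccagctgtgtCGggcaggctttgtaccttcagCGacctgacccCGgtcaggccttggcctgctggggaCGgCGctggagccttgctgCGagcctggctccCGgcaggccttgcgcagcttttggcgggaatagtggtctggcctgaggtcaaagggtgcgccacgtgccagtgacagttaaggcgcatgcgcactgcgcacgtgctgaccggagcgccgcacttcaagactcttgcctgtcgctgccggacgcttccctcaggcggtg
Hormad2: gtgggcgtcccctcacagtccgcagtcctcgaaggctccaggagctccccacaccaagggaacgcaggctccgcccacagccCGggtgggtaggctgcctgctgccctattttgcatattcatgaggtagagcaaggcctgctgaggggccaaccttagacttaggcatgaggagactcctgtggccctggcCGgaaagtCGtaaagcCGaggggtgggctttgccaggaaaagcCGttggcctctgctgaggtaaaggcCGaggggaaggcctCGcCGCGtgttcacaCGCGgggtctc
Slc25a31: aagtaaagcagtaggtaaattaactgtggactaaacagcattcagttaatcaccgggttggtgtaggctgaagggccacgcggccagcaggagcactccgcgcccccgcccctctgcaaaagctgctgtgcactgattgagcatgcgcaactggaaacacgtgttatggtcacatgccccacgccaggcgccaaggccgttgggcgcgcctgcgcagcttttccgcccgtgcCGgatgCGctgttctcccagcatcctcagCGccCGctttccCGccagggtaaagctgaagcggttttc

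In these windows the capitals cover 20 of 38 CpGs of Ddx4, 8 of 21 of Sycp1, 8 of 24 of Hormad1, 11 of 16 of Hormad2 and 5 of 22 of Slc25a31. Of the 34 members, 29 had a RefSeq promoter window, and Tdrd6, Piwil2, Tex15, Dppa3 and Dmrt1 had none in the table. With alternative starts there were 36 member windows. Their median CpG number was 17.5, from 0 to 38, against 7.00 over all 32851 windows of the same length. GCGGGAA, searched on both strands, was in 9 of the 36 member windows (25%) and in 4.60% of all windows. Its holders were Ddx4, Hormad1, Rpl10l, Slc25a31, Smc1b, Stag3, Sycp3 and Tex14. CACGTG, which reads the same on both strands and can share at most 1 end base with the first motif, was in 15 of the 36 (41.7%) and in 7.15% of all windows. Some windows of 1 gene overlap, and counted by gene the motifs were in 8 and 13 of the 29 members with a window. Both motifs contain a CpG, and the set of all windows was not matched to the members in CpG number. A motif match is a description of letters and was not tested for binding.

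Methylation at the ends of the members lay far from that of most genes. Of the 12 members with enough positions, 9 (75%) were at 60% methylation or above in all 6 libraries and 6 (50%) at 80% or above. Over all 13157 gene ends with enough positions, 4.03% and 3.0% reached these levels. The median over the 12 members ranged from 81.5% to 93.1% between libraries, against 3.09% to 4.36% over all gene ends. Tex15 and Dmrt1 (16.7% of the 12) were instead under 10% in all 6 libraries, as were 76.4% of all gene ends, and Dazl stood between. RNA was not measured, so whether the genes were silent is not known from these data. The name of the group, germline genes silenced by methylation, was thus matched in methylation by 9 of 12 measurable genes and not by Tex15 and Dmrt1 at the positions read. For Tex15, 32 of its 34 positions lay 541 to 657 bases inside a gene end. For Dmrt1, 31 of its 32 lay 214 to 441 bases inside. Neither gene had a promoter window, so the level at their promoters is not known.

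**Figure D1:**
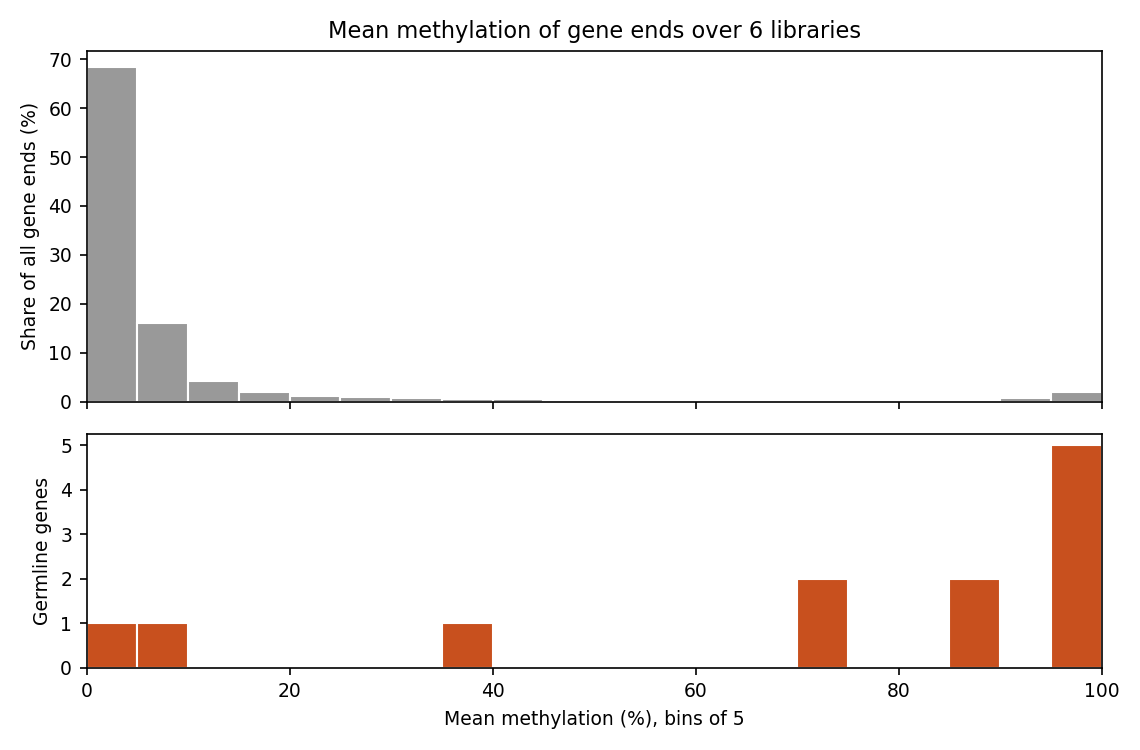
Mean methylation of gene ends over the 6 libraries, in bins of 5 percentage points. The upper bars give the share of all 13157 gene ends (%) and the lower bars the number of the 12 germline genes; most gene ends sit in the lowest bin, while 9 of the 12 germline genes sit at 70% or above.

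Every member with shared positions at its ends and a known strand had them on the side of the start, 21 of 21, and none on the far side. Reduced representation libraries read CpG-rich fragments, and no statement on the 3′ ends of these genes can be made. For Tex15 and Dmrt1, the table gave no strand, and their positions lay at the end with the lower coordinate. The blood cell genes Cd34, Tal1, Kit, Gata2 and Lyl1 were under 10% at their ends in all 6 libraries, while Vav1 was at 24.2% to 29.3%. Since 76.4% of all gene ends were that low, these levels do not test the tissue. The median over these 6 blood genes was 3.04% to 3.61%.

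**Figure D2:**
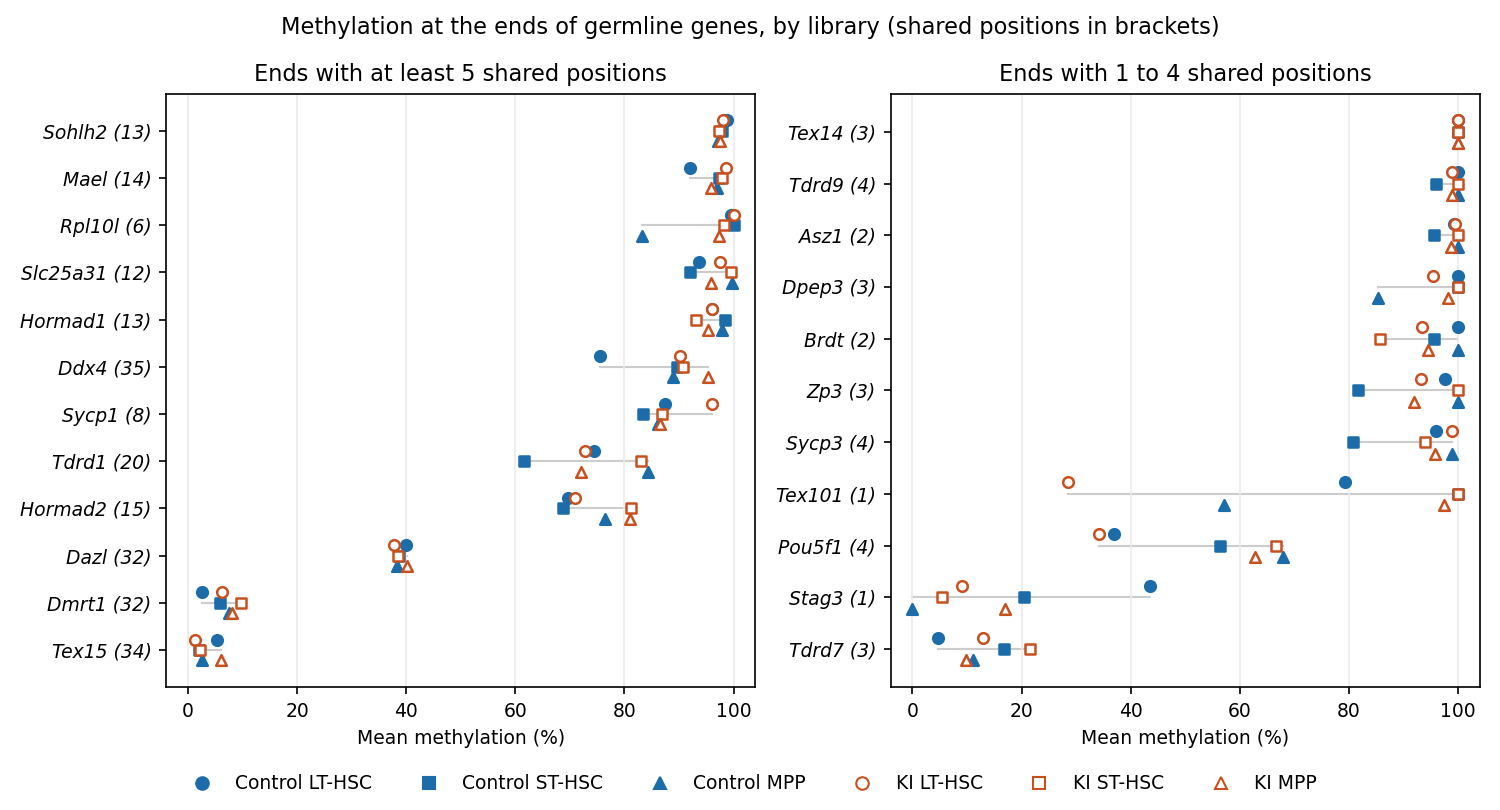
Mean methylation (%) at the ends of 23 germline genes in the 6 libraries, with the number of shared positions in brackets; filled blue symbols are Control and open orange symbols KI, and grey lines span the 6 libraries. On the left, Tex15 and Dmrt1 lie under 10% and Dazl near 40%, and the other 9 genes lie above 60% in every library; the right panel holds genes with 1 to 4 positions, where 1 library can stand far from the rest.

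The RNA-binding and RNA helicase genes of early germ cells come first, and 3 values given for a genotype stand in the order LT-HSC, ST-HSC, MPP throughout. Ddx4, also called Vasa, encodes an RNA helicase of the germ granule. Its 35 shared positions spanned 110 bases across its start and averaged 75.5%, 89.6% and 88.9% in the Control libraries, and 90.2%, 90.8% and 95.4% in those of KI. Control LT-HSC was thus the low library, and the other 5 lay within 88.9% to 95.4%. Pooled over reads, Ddx4 had 1385 methylated of 1746 reads in Control LT-HSC (79.3%, 95% Wilson interval 77.4 to 81.2%) and 2215 of 2394 in KI LT-HSC (92.5%, 91.4 to 93.5%).

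Dazl encodes an RNA-binding protein that promotes translation in germ cells. Its ends averaged 39.9%, 38.7% and 38.3% in the Control libraries, and 37.7%, 38.4% and 40.2% in those of KI. The 6 libraries spanned only 2.44 percentage points, but the mean joined methylated and unmethylated stretches. The 5 positions from 530 bases before the start outward were at 96.6% to 100% in every library. A stretch of 7 positions 256 to 417 bases inside the start was at 95.5% to 100%. The other 20 positions, 652 to 794 bases inside the start at chr17:50292826-50292968, were at 4.95%, 2.38% and 1.35% in the Control libraries, and 1.30%, 3.21% and 5.68% in those of KI. Both methylated stretches flank the RefSeq promoter window of Dazl, in which no position was shared by all 6 libraries.

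**Figure D3:**
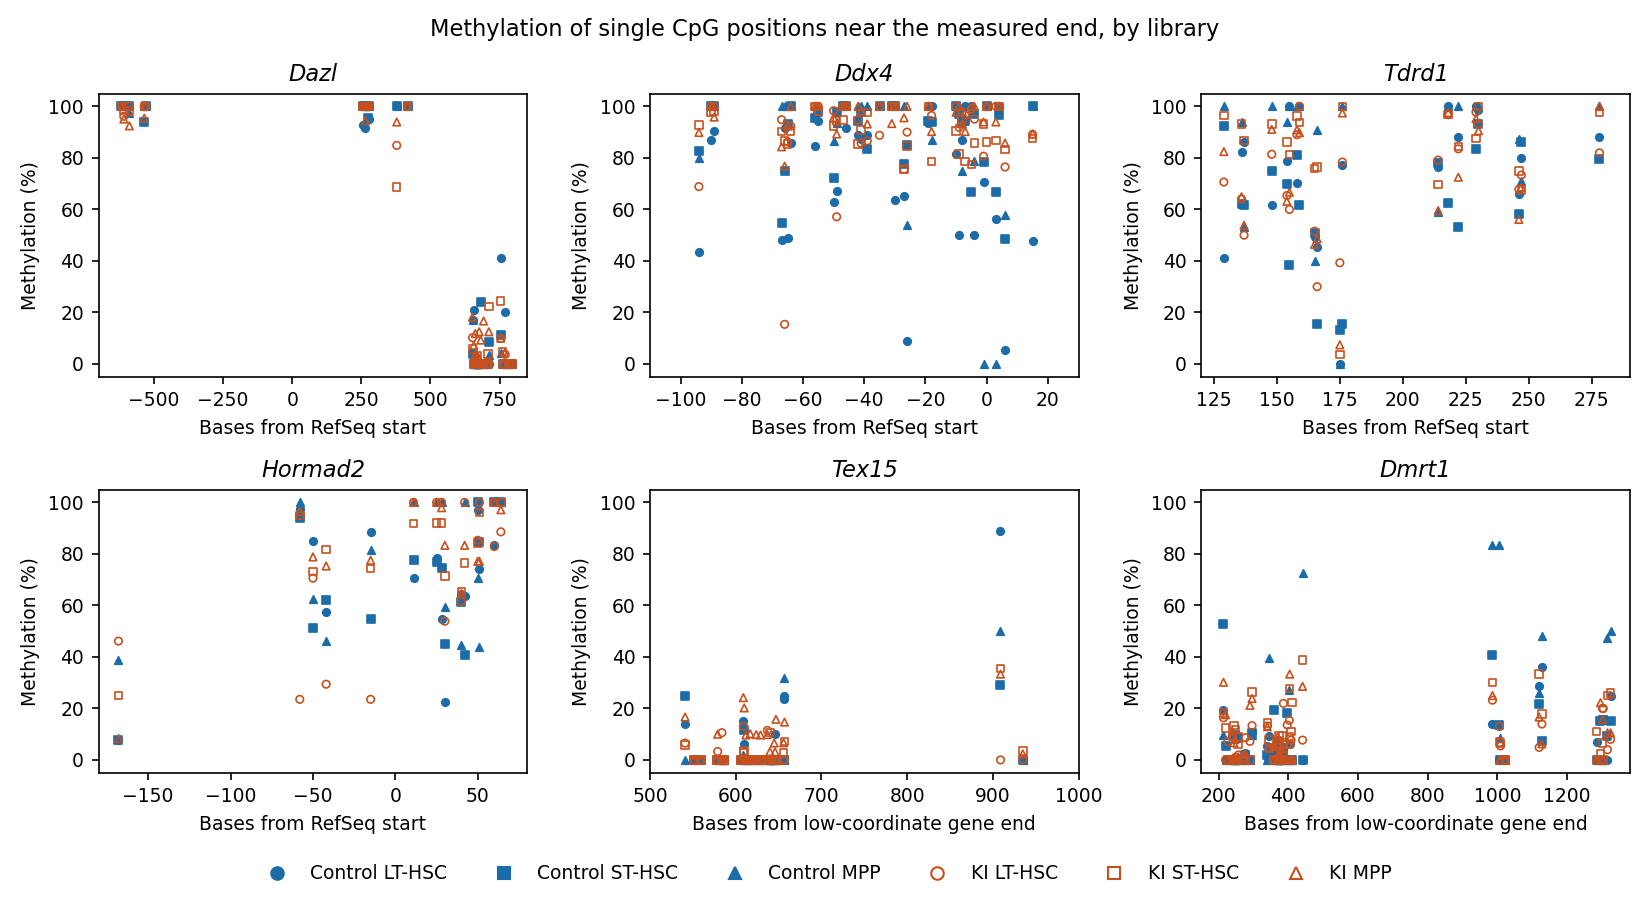
Methylation (%) of single CpG positions against distance in bases from the RefSeq start, or from the end with the lower coordinate for Tex15 and Dmrt1, in the 6 libraries (filled blue Control, open orange KI; circles LT-HSC, squares ST-HSC, triangles MPP). Dazl changes from near 100% to near 0% inside the gene, Ddx4, Tdrd1 and Hormad2 hold many partly methylated positions, and Tex15 and Dmrt1 lie mostly under 20%.

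The Tudor-domain genes and other parts of the piRNA pathway, which silences transposons in germ cells, differed among themselves. Tdrd1, a scaffold that binds methylated PIWI proteins, held 20 positions 129 to 278 bases inside its start. They averaged 74.5%, 61.5% and 84.4% in the Control libraries, and 72.7%, 83.1% and 72.1% in those of KI. The lowest and the highest library were both Control, and KI lay above Control in ST-HSC and below it in LT-HSC and MPP. Pooled over reads, Tdrd1 had 527 methylated of 798 reads in Control ST-HSC (66.04%, 95% Wilson interval 62.7 to 69.2%) and 466 of 561 in KI ST-HSC (83.1%, 79.7 to 85.9%). Mael, a piRNA factor of the germ granule, was at 92.1%, 97.4% and 96.97% in the Control libraries, and 98.7%, 97.96% and 95.8% in those of KI over 14 positions that spanned 52 bases across its start. Control LT-HSC was again the low library.

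Tdrd9, a helicase of the same pathway, was at 95.9% to 100% over 4 positions at its start and at 88.4% to 94.8% over 17 body positions. Asz1, a mitochondrial piRNA factor, was at 95.7% to 100% over 2 positions. Tdrd6, Piwil2, Piwil4 and Mov10l1 were measured in the body alone. Piwil4, a nuclear PIWI protein, was at 96.9% to 100% over 9 positions and Mov10l1, a piRNA helicase, at 92.8% to 99.8% over 10. The 2 body positions of Piwil2, another PIWI gene, were at 91.7% to 100%.

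A pair of Tudor genes were low over part of their length. The 56 body positions of Tdrd6, a germ granule scaffold, were on average at 19.8%, 26.3% and 26.4% in the Control libraries, and 27.2%, 25.5% and 27.01% in those of KI. They fell into a stretch of 31 positions at 31.2% to 41.03% and a stretch of 25 at 5.83% to 11.1%. Tdrd7, which is also used in the lens, had 3 positions at its outer start, at 4.63%, 16.7% and 11.1% in the Control libraries, and 12.99%, 21.6% and 9.84% in those of KI. In its body, 34 positions within 261 bases of a RefSeq start inside the gene were at 1.48% to 3.97%, and 4 positions further in were at 100% in all 6 libraries.

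Of the genes of meiotic chromosome pairing, Sycp1, Sycp3 and Hormad1 were high, Hormad2 was partly methylated, Stag3 was mixed, and Sycp2, Syce1 and Smc1b had no shared position. Sycp1, the transverse filament of the synaptonemal complex, was at 87.5%, 83.4% and 86.1% in the Control libraries, and 96.1%, 86.8% and 86.5% in those of KI over 8 positions. KI LT-HSC was the high library and the other 5 lay between 83.4% and 87.5%. Against Control LT-HSC, however, only 1 of the 8 positions was higher in KI LT-HSC and 3 were lower. Sycp3, an axis protein of that complex, was at 96.05%, 80.8% and 98.9% in the Control libraries, and 98.9%, 94.01% and 95.8% in those of KI over only 4 positions, with Control ST-HSC low. Hormad1, which marks unpaired chromosome axes, was at 93.2% to 98.4% over 13 positions in the 6 libraries.

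Hormad2, its relative on meiotic axes, was partly methylated. Its 15 positions averaged 69.7%, 68.7% and 76.5% in the Control libraries, and 71.02%, 81.2% and 81.1% in those of KI. The ST-HSC and MPP libraries of KI lay above the other 4, of which Control MPP was the nearest. Pooled over reads, Hormad2 had 587 methylated of 889 reads in Control ST-HSC (66.03%, 95% Wilson interval 62.9 to 69.1%) and 611 of 744 in KI ST-HSC (82.1%, 79.2 to 84.7%). Single positions were uneven, since the position furthest before the start was at 7.69% to 46.15% while the position 64 bases inside was at 88.57% to 100%.

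Stag3, a meiotic cohesin subunit, could not be read as 1 level. Its RefSeq extent begins before the start of its promoter window, and 26 positions, the nearest of them 4512 bases before that start, were at 90.04% to 95.8%. Another 11 positions, the nearest 449 bases before the start, were at 1.57% to 2.82%. Of its 41 shared positions, 38 also lie in Gpc2, a neighbouring glypican gene, 12 of them at an end of Gpc2, so these levels cannot be given to Stag3 alone. The single position at the outer end of its extent was at 43.6%, 20.4% and 0% in the Control libraries, and 9.09%, 5.41% and 16.98% in those of KI, on 11 to 55 reads.

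Among genes of sperm formation, Slc25a31, the testis form of the mitochondrial ADP/ATP carrier, was at 92.1% to 99.8% over 12 positions. The testis ribosomal protein gene Rpl10l was at 99.6%, 100% and 83.3% in the Control libraries, and 100%, 98.3% and 97.4% in those of KI over 6 positions, with Control MPP low. Tex14, which keeps germ cell bridges open, was at 100% in all 6 libraries over 3 start positions, but all 3 also lie at an end of Rad51c. Its 6 body positions were at 93.3% to 98.5%. Brdt, a testis bromodomain protein, was at 100%, 95.7% and 100% in the Control libraries, and 93.5%, 85.7% and 94.6% in those of KI over 2 positions on 28 to 61 reads, and KI was the lower library in each cell type.

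Dpep3, a testis dipeptidase, was at 100%, 100% and 85.3% in the Control libraries, and 95.4%, 100% and 98.1% in those of KI over 3 positions, with Control MPP low. Tex101, a surface glycoprotein of male germ cells, had 1 shared position, at 79.3%, 100% and 57.1% in the Control libraries, and 28.6%, 100% and 97.5% in those of KI. That position rested on 10 to 40 reads a library, and no order of the groups can be read from it. Tex15, a meiotic recombination and transposon silencing factor, was the lowest of the 12 in its mean over the 6 libraries. Its 34 positions averaged 5.37%, 1.94% and 2.46% in the Control libraries, and 1.32%, 2.10% and 6.06% in those of KI, and the libraries of the 2 genotypes overlapped.

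The transcription factors of germ and pluripotent cells spanned the whole range. Sohlh2, a regulator of spermatogonia and oocytes, was at 97.2% to 98.8% over 13 positions, the narrowest range among the 9 methylated genes at 1.65 points. Dmrt1, a regulator of testis identity, was at 2.58%, 5.76% and 7.57% in the Control libraries, and 6.21%, 9.68% and 8.0% in those of KI over 32 positions. KI was the higher library in each cell type, with differences of 3.64, 3.92 and 0.431 points, although Control MPP lay above KI LT-HSC. The 17 body positions of Dmrt1 were at 38.2%, 39.1% and 46.9% in the Control libraries, and 39.96%, 41.4% and 37.0% in those of KI.

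Pou5f1, the pluripotency factor OCT4, was partly methylated at 36.96%, 56.4% and 67.9% in the Control libraries, and at 34.2%, 66.6% and 62.8% in those of KI. LT-HSC was the lowest cell type in both genotypes. These are 4 positions, all of which also lie at an end of the lncRNA gene Gm32362, and they were too few for the test. Zp3, a coat protein of the egg, was at 97.7%, 81.7% and 100% in the Control libraries, and 93.2%, 100% and 91.95% in those of KI over 3 positions, with Control ST-HSC low.

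Between genotypes, few of the 12 ends were called in any cell type, and no gene was called in 1 direction in all 3. A call needed an adjusted p under 0.01 in a two-sided Fisher exact test on reads summed over positions, with Benjamini-Hochberg adjustment over all 13157 ends, and at least 10 points between the mean levels. In LT-HSC 1 of 12 ends was called, against 1.68% of all ends: Ddx4 was 14.7 points higher in KI (Fisher exact test, adjusted p = 6.92e-33). In ST-HSC 2 of 12 were called, against 2.06% of all ends. Tdrd1 was 21.6 points higher in KI (Fisher exact test, adjusted p = 1.3e-10) and Hormad2 was 12.6 points higher (Fisher exact test, adjusted p = 1.27e-11). In MPP 2 of 12 were called, against 2.69% of all ends. Rpl10l was 14.1 points higher in KI (Fisher exact test, adjusted p = 0.00468), and Tdrd1 was 12.3 points below Control, a difference of -12.3 points (Fisher exact test, adjusted p = 1.61e-13).

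Most of all ends were near 0%, where only a higher level can be 10 points away. Among the 596 gene ends with a mean of at least 60%, which include 9 of the members, the called share was 9.90%, 8.56% and 9.73% for LT-HSC, ST-HSC and MPP. The 4 called genes, Ddx4, Tdrd1, Hormad2 and Rpl10l, were all among these 9, and from counts of 1, 2 and 2 genes nothing particular to the germline genes is read. The range between the 6 libraries had a median of 12.6 points over these 9 members and 8.46 points over the 596 ends. Median differences over the 12 members were 0.868, 0.875 and 0.424 points in the same order, and over all ends -0.144, 0.613 and 1.24 points. The number of members with a higher level in KI was 7, 8 and 8 of 12, beside 6059, 8813 and 9657 of all 13157 ends.

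**Figure D4:**
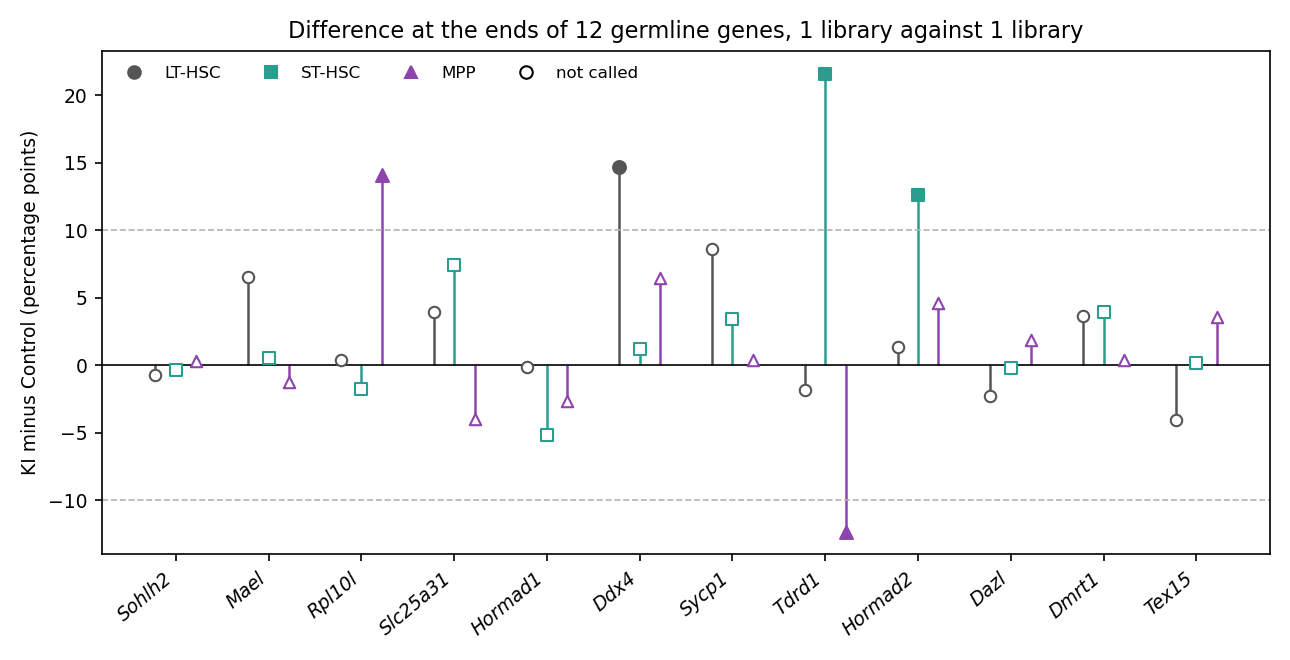
Difference in mean methylation between the KI and the Control library (percentage points) at the ends of 12 germline genes, in LT-HSC (circles), ST-HSC (squares) and MPP (triangles); filled symbols passed both limits of the call and dashed lines mark 10 points. The filled circle is Ddx4, the filled squares are Hormad2 and Tdrd1, and the filled triangles are Rpl10l and, below 0, Tdrd1.

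Neighbouring positions on 1 strand are often covered by the same reads, so a read counts once at each position it covers and the Fisher p-values are too small and the Wilson intervals too narrow. On the forward strand of Ddx4, for example, the positions nearest the start had between 19 and 22 reads each in Control LT-HSC. On those few reads the levels ran from 5.26% to 100%. Summing also weights positions by depth, so the test can pass where mean levels hardly differ. The ends of Dazl in LT-HSC differed by -2.23 points in mean level (Fisher exact test, adjusted p = 6.35e-75) and were not called. Pooled over reads they were at 49.7% in Control and 18.7% in KI. The 2 strands of a CpG are covered by separate reads, and the differences on each strand are given side by side. At 90 member CpGs read on both strands, the mean absolute difference between the strands of 1 library was 10.2, 6.09 and 10.2 points for the Control libraries, and 6.62, 6.23 and 5.81 points for those of KI. The mean absolute difference between KI and Control at the same CpGs was 9.84, 6.11 and 7.76 points on the forward strand alone and 6.86, 5.70 and 6.72 points with both strands averaged. Strands of 1 library thus differed about as much as the 2 genotypes did on 1 strand. Over all 78150 CpGs read on both strands, the strands of 1 library differed by 3.53 to 4.53 points and the genotypes by 3.64, 3.50 and 4.29 points on the forward strand.

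The called differences varied in how they divided between strands. The Ddx4 difference in LT-HSC was 14.8 points on the forward and 14.7 on the reverse strand, with 23 of 35 positions higher and 8 lower in KI. Its differences in the other cell types were not called, at 1.22 points for ST-HSC and 6.46 points for MPP. Tdrd1 differed in ST-HSC by 14.9 points on the forward and 31.5 on the reverse strand, with 17 of 20 positions higher in KI. In MPP it differed by -12.2 and -12.5 points, with 15 of 20 positions lower. In LT-HSC, where no call was made, Tdrd1 differed by 6.03 on the forward and -13.7 on the reverse strand.

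Hormad2 differed in ST-HSC by 17.8 points on the forward and 8.0 on the reverse strand, with 12 of 15 positions higher and 1 lower. In LT-HSC its strands differed by 26.7 and -20.8 points, which nearly cancelled in the mean of 1.36. The KI LT-HSC library had only 10 to 17 reads at most of these positions. Rpl10l had shared positions on the forward strand only, so its strands could not be compared. Its difference in MPP came from 1 of 6 positions, 22 bases inside the start, at 0% of 19 reads in Control and 84.62% of 13 reads in KI. At each of the other 5 positions both libraries were at 100%.

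**Figure D5:**
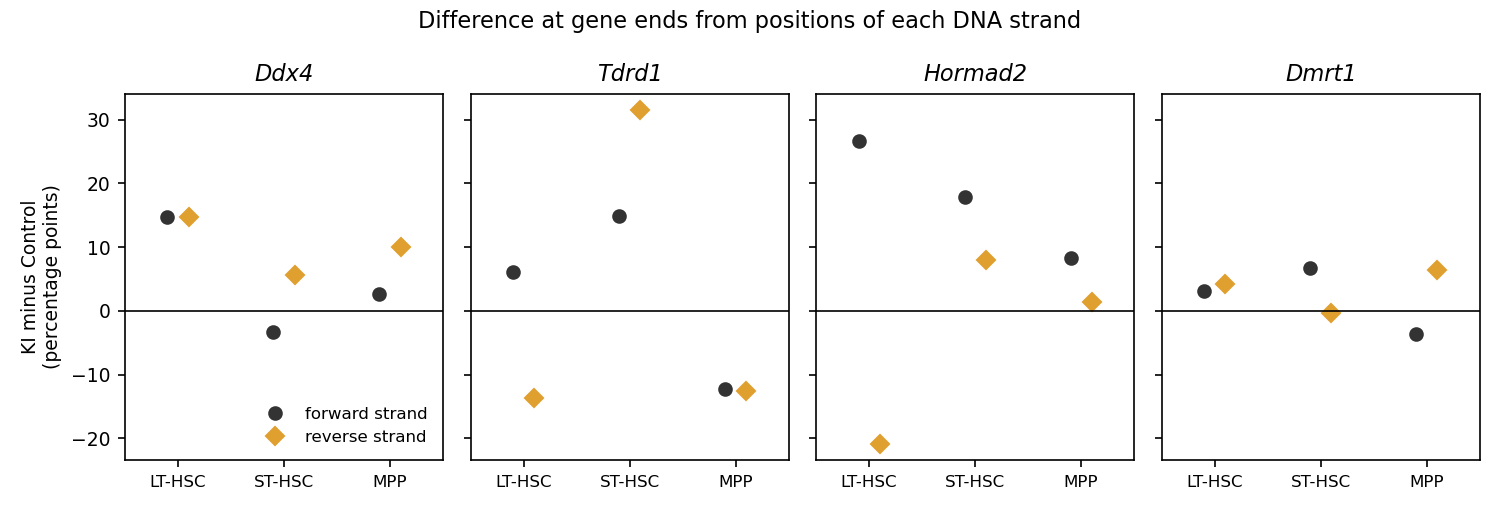
Difference between KI and Control (percentage points) at the ends of 4 genes, from forward-strand positions (dark circles) and reverse-strand positions (yellow diamonds), by cell type. For Ddx4 in LT-HSC and Tdrd1 in MPP the strands nearly coincide; for Hormad2 and Tdrd1 in LT-HSC they lie on opposite sides of 0.

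Fewer reads or positions ended some of these calls. With positions of at least 20 reads, Tdrd1 was 10.6 points higher in ST-HSC and -9.65 points in MPP, and neither was called, while Hormad2 and Rpl10l had too few such positions for the test. With every position thinned to 10 reads, only Ddx4 in LT-HSC was still called among the 5 differences between genotypes, at 15.4 points. The thinned differences of Tdrd1 in ST-HSC and Rpl10l in MPP were 16.5 and 13.3 points, still above 10, and with fewer reads their adjusted p no longer passed. Those of Hormad2 in ST-HSC and Tdrd1 in MPP were 8.0 and -6.0 points, under the limit of 10. With at least 20 reads the Ddx4 difference was 26.5 points, more than 1.5 times the value above.

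The fit with a spread between libraries gave no member. With limma, fitted to log2((methylated + 1)/(unmethylated + 1)) of the summed reads with cell type as a block, 0 of 12 member ends were called at an adjusted p under 0.05, against 0.00760% of all ends (1 of 13157). At an unadjusted p under 0.05, limma gave 1 member and 6.23% of all ends. That member was Dmrt1, higher in KI by 0.95 on the log2 scale (SE 0.36, limma unadjusted p = 0.0311, adjusted p = 0.791). Its strands differed by 3.18 and 4.30 points for LT-HSC, by 6.77 and -0.262 for ST-HSC, and by -3.65 and 6.39 for MPP. The cell types stand in for replicates in this fit and may share mice, so it does not measure the spread between animals.

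Member bodies gave 0 calls of 8 in every cell type by the Fisher exact test, against 4.39%, 5.12% and 6.22% of all 7560 bodies. By limma 0 of 8 were called, against 0% of all bodies, and 0 members and 7.39% of bodies had an unadjusted p under 0.05. The lead of the members over other genes was smaller here: the median over the 8 bodies was 77.6% to 81.5% against 48.3% to 53.8% over all bodies. Of the 8, 4 were at 80% or above in all 6 libraries, Tdrd9, Piwil4, Tex14 and Mov10l1. That share of 50% stands against 32.9% of all bodies.

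From stem cell to progenitor, each genotype gave its own pair of libraries, the same ones as in the comparison of genotypes, so the 2 sets of differences are not independent. In Control, 2 of 12 ends were called between MPP and LT-HSC, against 2.79% of all ends. Ddx4 was 13.5 points higher in MPP (Fisher exact test, adjusted p = 9e-33) and Rpl10l differed by -16.3 points (Fisher exact test, adjusted p = 1.14e-08). At a coverage of at least 20 the Ddx4 difference was 24.2 points, more than 1.5 times that value. Both differences rest on libraries that stood low above, Control LT-HSC for Ddx4 and Control MPP for Rpl10l. In KI, 1 of 12 was called, against 1.64% of all ends: Hormad2 was 10.1 points higher in MPP (Fisher exact test, adjusted p = 0.000665). No member body was called in either genotype, against 7.34% of all bodies in Control and 4.54% in KI. The median over the 12 ends was 3.35 points in Control and -0.558 in KI, against -0.228 and 1.19 over all ends.

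Some measured CpGs lay inside the searched motifs. The E-box of Ddx4, printed as caCGtg in its sequence, was read on the forward strand at 9.09%, 84.8% and 54.05% in the Control libraries, and at 90%, 84.6% and 100% in those of KI. On the reverse strand the same CpG was at 65.1%, 77.8% and 100% in the Control libraries, and 75.5%, 75.6% and 95.6% in those of KI. The low forward value in Control LT-HSC rested on 22 reads, and the reverse value beside it on 63. The E-box CpG of Sycp1 was at 88.9% to 100% in the 6 libraries. The GCGGGAA site of Slc25a31, printed on the other strand as ttccCGc, was at 100% in all 6.

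Germline genes outside the 34 were less uniform. Of 66 such genes on a list of meiotic, piRNA, oocyte and pluripotency genes, 26 had ends with enough positions, and their median was 15.4% to 21.8%. Of the 26, 8 were at 60% or above in all 6 libraries and 9 under 10%. Tex19.1, a placental and germ cell gene, was at 95.97%, 97.2% and 96.6% in the Control libraries, and 99.3%, 98.7% and 96.3% in those of KI. Zfp42, the pluripotency marker REX1, was at 90.3% to 97.7%. In KI against Control, 0 of the 26 were called higher and 3 lower for LT-HSC, 1 and 0 for ST-HSC, and 3 and 0 for MPP. The called share of all ends was 1.68%, 2.06% and 2.69% in that order. Among all ends with a mean of at least 60% it was 9.90%, 8.56% and 9.73%. From these counts nothing particular to the list is read. None of the 26 was called in 1 direction in all 3 cell types. Tex19.1, Zfp42 and, in the next list, Pcgf6 were picked after their values were seen. The difference between this list and the 34 was not tested, and only the 34 were chosen under a name that states methylation.

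Genes on a list of silencing and DNA methylation machinery, which also holds enzymes that oxidise methylated cytosine, were mostly unmethylated at their measured ends. Of 24 genes on that list, with the DNA methyltransferases, the TET enzymes and the E2F6 and MGA complex, 21 had ends with enough positions. Those without were Dnmt1, Dnmt3a and L3mbtl2, so Dnmt3b was the only DNA methyltransferase of the list measured at its ends. Of the 21, 17 were under 10% in all 6 libraries, and the median over the 21 was 2.08% to 3.30%. The 1 call between genotypes was Pcgf6, a subunit of the E2F6 and MGA complex, in MPP, where 2.69% of all ends were called. Pcgf6 was at 3.97%, 0.877% and 22.2% in the Control libraries, and at 3.4%, 3.46% and 8.02% in those of KI. Control MPP thus stood apart and KI was lower there.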

How the data were processed

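The 6 mouse libraries were made by enhanced reduced representation bisulfite sequencing, which reports methylation of single cytosines in CpG-rich fragments. Per the file headers, the authors deposited for each cytosine a coverage, which is a count of reads and was 10 or more throughout, and freqC and freqT, the percent of those reads that show C or T. Per the submitters' processing notes, the tools were Bismark 0.10.0, SAMtools 1.0 and methylKit 0.9.1 on mm10. Tool settings and any removal of duplicate reads were not given in the sources used here. Coverage times percent C gave whole methylated reads at 100% of positions, within 0.01% of the coverage.

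Libraries held 38284759 to 53884467 reads summed over positions, with a median of 27 to 45 reads per position and 10 to 277 at member positions. Of 1352372 positions in any library, 552338 were shared by all 6. Levels were unweighted means over shared positions, with strands kept apart. Gene extents and promoter windows came from RefSeq tables of GRCm38.p6. Fisher exact tests (SciPy 1.17.1, pandas 2.3.3, Python 3.11.15) and limma 3.58.1 in R 4.3.3, with a prior count of 1 and a variance trend, ran over all features with at least 5 shared positions. Both were run on simulated data with reads drawn independently. Reads that cover several positions were not simulated, so that run cannot show how far the Fisher p-values are too small. Intervals are Wilson intervals on the same sums of reads over positions. They are too narrow even for counting error, since 1 read counts at each position it covers and duplicates of 1 molecule cannot be told apart.

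The members, the gene lists, the tests and the alternatives were chosen with earlier results of these data known. Levels in every library were given for members called in any comparison, for those between 10% and 90% at their ends in any library, and for Dazl, Ddx4, Mael, Sycp1, Sycp3, Tex101 and Dpep3. Of other lists, genes called in 1 direction in all 3 cell types or by limma were to be named. Alternatives were a coverage of at least 20, thinning to 10 reads, at least 10 positions, 500 or 2000 bases to each side, levels pooled over reads, a prior count of 5, no cell type block and leaving out each cell type. Regions within 1000 bases of a RefSeq start were added after seeing the data.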

Additional observations from a re-analysis of the deposited data

Results flagged for a closer look

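The ends of Tdrd1 differed between genotypes in opposite directions in 2 cell types. KI was 21.6 points above Control in ST-HSC, while in MPP the difference was -12.3 points. Each value compares 1 library with 1 library, and the difference between the cell types was not tested.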

How the results depend on the processing

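The single call in LT-HSC, Ddx4, was made under all 6 alternatives tried for it. Its 35 positions lay within 110 bases across the start, so the settings on number of positions and on distance kept all of them. Those settings therefore could hardly change the call. Only the coverage of at least 20 and the thinning removed reads at these positions. Counts of called member ends between KI and Control changed with depth in the other cell types. With a coverage of at least 20, ST-HSC went from 2 to 0 and MPP from 2 to 0, and thinning to 10 reads gave 0 in both. MPP against LT-HSC went from 2 to 1 in Control and from 1 to 0 in KI under each of these settings, although the thinned differences of Rpl10l (-15 points) and Hormad2 (10.7) were still past 10. Requiring at least 10 positions, which leaves out Rpl10l, gave 1 in MPP and 1 for MPP against LT-HSC in Control. Within 1000 bases of a RefSeq start, an alternative chosen after seeing the data, Pou5f1 was added to 3 counts: KI against Control in ST-HSC went from 2 to 3, and MPP against LT-HSC from 2 to 3 in Control and from 1 to 2 in KI. Of 26 alternatives of the 8 called differences, 18 stayed past their limit, 8 did not and 0 reversed. Pooling over reads was held to the limit of 10 points alone, on the same sums as the Fisher test. Requiring at least 10 positions left the differences it tested unchanged. A gene with too few positions under a setting was left out of the 26. With a coverage of at least 20 or thinning, only the Ddx4 differences kept the call. Thinning moved all-gene calls most, from 147 higher and 74 lower to 23 and 14 in LT-HSC, from 242 and 29 to 69 and 6 in ST-HSC, and from 275 and 79 to 100 and 19 in MPP; the thinned reads are fewer by construction. The median over member ends moved in LT-HSC from 0.868 points to 1.67 pooled over reads, 3.15 at a coverage of at least 20 and 0.378 around RefSeq starts. In ST-HSC it moved from 0.875 to 1.58, 0.531 and 1.22 in that order, and in MPP from 0.424 to 0.713 pooled over reads. The cause was not tested. Member bodies stayed at 0 calls under each alternative run. By limma 0 members were called in every setting, although leaving out 1 cell type moved the all-gene count from 1 to 0 without LT-HSC, 90 without ST-HSC and 31 without MPP. Pooling over reads left 53 of 72 levels within their Wilson interval, and the largest move was 19 points for Dazl in KI LT-HSC, whose stretches differ in depth. No paired analysis was possible because the labels number no replicates; the cell type block of the limma fit sets KI against Control within a cell type, and without it 0 members were called as well.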
